A study of Mus musculus with 2 samples.

Results

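The DNA replication genes described here were 40 mouse genes that load, start and run the replication fork, and they were read on 2 arrays of bone marrow cultures, 1 for each siRNA. They were chosen by name: a gene was a member when the annotation of the array gave its symbol to a probe set (a group of short probes against 1 transcript), and it was read from the brightest of its single-symbol probe sets, by the mean of both arrays. All 40 had such a probe set, among 18193 genes that did, and no probe set was shared between a member and another gene. All 40 also reached the floor, an intensity of 78.4 on at least 1 array, which 11920 genes reached.

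The first culture was bone marrow of C57BL/6 mice transfected with silncMDSC, the siRNA against the long non-coding RNA lncMDSC (lnc-C/EBPβ in the study), and the second was the same kind of marrow transfected with control siRNA. Both cultures then grew for 4 days in GM-CSF and IL-6, cytokines that turn marrow cells into myeloid-derived suppressor cells (MDSCs), so neither siRNA was tested without them. The age and number of the mice were not given in the sources used here, and the knockdown of lncMDSC itself was not analysed here. With 1 array per group no difference below has a replicate check, none was tested, and each describes these 2 arrays alone.

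Replication starts at origins. The origin recognition complex marks them, Cdc6 and Cdt1 load the ring-shaped MCM helicase onto them in G1, and Cdc45, GINS and Mcm10 turn the loaded ring into a moving helicase in S phase. Primase and polymerase α then lay the first primers, polymerases δ and ε copy the strands, and a clamp, its loader, a single-strand binding protein, a flap nuclease and a ligase finish them. Most of these genes are transcribed late in G1 under E2F factors, and marrow precursors of neutrophils and monocytes use them until they stop dividing.

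Both arrays held message of the labelled cells. The neutrophil proteins S100a8, S100a9, Ngp, Camp, Ltf and Lcn2, the monocyte receptors Csf1r and Ccr2 and the macrophage marker Adgre1 were above the floor on both, and Ly6g was not read by a single-symbol probe set. Median intensities were 79.0 in silncMDSC and 77.9 in control, and the median difference over the 11920 genes was -0.002, with a standard deviation of 0.22 (log2(intensity + 1), silncMDSC minus control, the scale of every difference below). RNA spiked in by the array protocol was slightly higher on the silncMDSC array. The median was 0.11 over 18 hybridisation spikes and 0.16 over 27 poly-A spikes, which ran from -0.01 to 0.34. In size, 29 of the 40 replication genes differed by no more than that poly-A median, in either direction. The same share over all genes is not given here, so this count does not set the members apart. The part of the spike offset in the replication genes was not tested.

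E2F words in the promoters of these genes are shown first, because most of the genes are transcribed under E2F factors. The words searched were TTTGGCGC, TTTCGCGC, TTTCCCGC and TTTGCCGC on both strands, in windows of 250 bases before to 50 bases after a RefSeq transcript start (build GRCm38.p6). Each stretch below is 80 bases, read 5′ to 3′ on the strand of the gene and lying wholly before the annotated gene, with the words in capitals. A word lay wholly before the start in 9 windows, and the 4 shown are those whose stretch lay outside the annotated gene. Mcm5 is at chr8:75109322-75109401 (+), Mcm6 at chr1:128359741-128359820 (-), Gins3 at chr8:95633479-95633558 (+) and Rfc3 at chr5:151651209-151651288 (-).
Mcm5: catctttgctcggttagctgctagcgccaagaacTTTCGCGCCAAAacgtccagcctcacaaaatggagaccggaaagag
Mcm6: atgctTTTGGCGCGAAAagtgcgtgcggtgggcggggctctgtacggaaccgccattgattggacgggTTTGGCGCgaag
Gins3: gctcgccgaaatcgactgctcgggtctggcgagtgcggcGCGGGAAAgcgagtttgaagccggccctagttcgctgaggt
Rfc3: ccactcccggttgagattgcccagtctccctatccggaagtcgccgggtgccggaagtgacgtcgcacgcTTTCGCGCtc

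In Mcm5 and in the first run of Mcm6, 2 words on opposite strands overlap. Mcm4, Gmnn, Gins1, Gins2, Gins4, Prim2, Pole, Rfc2 and Ccne2 were not matched in the promoter table. Of the 31 members that were, 14 (45.2%) held an E2F word, against 2.6% of all 27025 genes in it and 4.66% of the genes above the floor that had one. Among the other replication factors described further on, 31.6% held it. Members with and without the word lay mostly on the same side. The 14 members with it had a median difference of -0.09 and 10 of them lay below 0. The 17 without it had a median of -0.14 with 16 below 0. Of all genes above the floor in the promoter table, 252 of 449 with the word and 4678 of 9191 without it lay below 0. The gap between members with and without the word was not tested. The CCAAT word, where the factor NF-Y binds, stood in 67.7% of the members' promoters, against 41.1% of all promoters in the table. It stood in 73% of those of the mitosis and spindle genes described further on. Among the other replication factors it stood in 42.1%, close to the share of all promoters. A match is a description of the letters and not of binding.

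Between the 2 arrays, the replication genes leaned slightly to lower values in silncMDSC. The median difference was -0.11 and the range -0.45 to 0.20. Of the 40, 0 were 1.5-fold apart in either direction, where 1.42% of the 11920 genes lay at least 1.5-fold lower and 0.948% at least 1.5-fold higher. At 1.2-fold, 3 members (7.5%) were lower against 10.6% of all genes, and 0 were higher against 6.96%. The count at 1.2-fold depends on the probe sets read, as given with them below, and the standard deviation of the members' differences was 0.13. In sign, 31 of the 40 (77.5%) lay below 0, against 50.7% of all genes. In 40 genes such shares at 1.2-fold and 1.5-fold come to few genes, so those counts do not set the members apart. All these counts are a description, and genes of 1 array are not independent of each other.

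**Figure D1:**
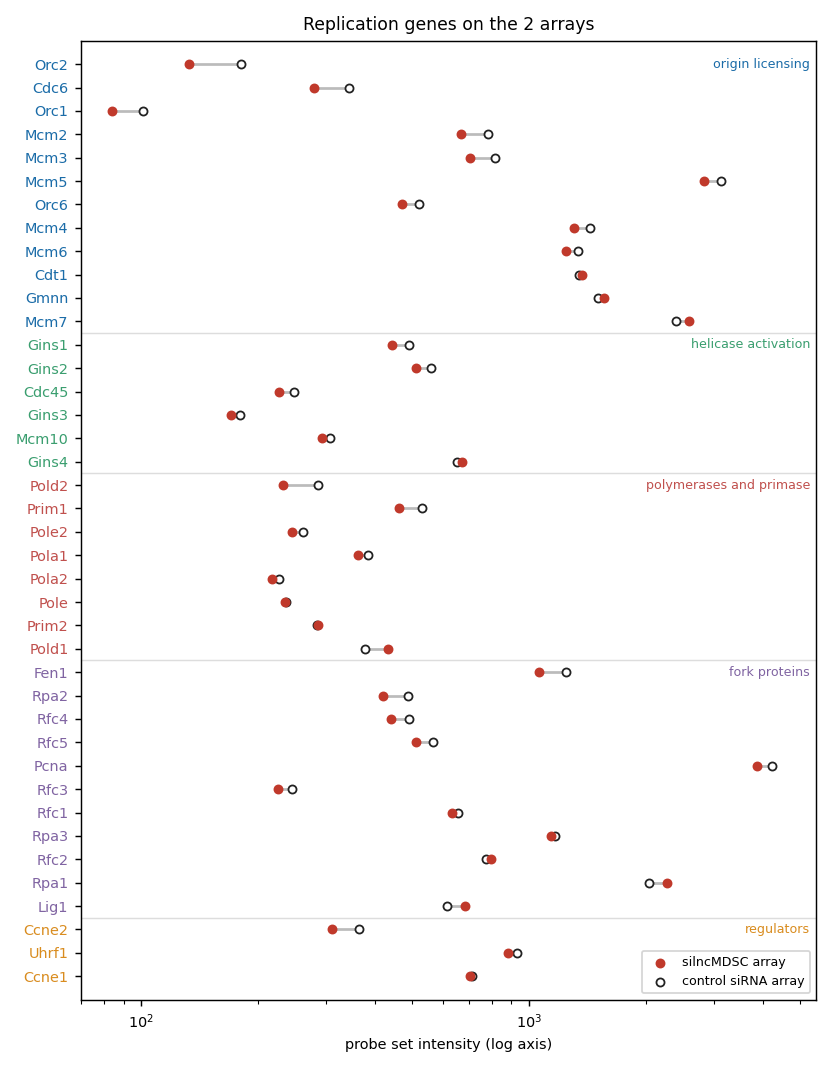
Probe set intensity (x axis, log scale) of each of the 40 replication genes on the silncMDSC array (red) and the control siRNA array (open), grouped by role. The silncMDSC point lies left of the control point for 31 genes, and the gap is widest for Orc2, with 133 in silncMDSC and 181 in control.

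Origin licensing held Orc2, the member farthest below control, and 2 of the 3 members past 1.2-fold. Its 12 genes had a median of -0.15, and 9 lay below 0. Orc2, a core subunit of the origin recognition complex, had an intensity of 133 in silncMDSC and 181 in control, a difference of -0.45 or 1.36-fold lower, and ranked 377 from the lowest of the 11920 genes. Its other probe sets gave -0.56 and -0.51. Orc1, an ATPase subunit, had 84.3 in silncMDSC and 101 in control (-0.26), both near the floor, and -0.33 on its other probe set. Orc6 had 470 in silncMDSC and 521 in control (-0.15). All 3 subunits were on the same side, and only Orc2 passed 1.2-fold. Of the subunits outside the 40, added here after their values were seen, Orc3 (-0.15) and Orc4 (-0.22) were on that side as well and Orc5 was level (0.01).

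The loading factors did not share a side. Cdc6, the ATPase that recruits the helicase, had 279 in silncMDSC and 342 in control, 1.23-fold lower (-0.29) on its single probe set. Cdt1, its partner in loading, had 1371 in silncMDSC and 1347 in control (0.03), and its next probe set above the floor gave -0.10. Gmnn encodes geminin, which binds Cdt1 and blocks a second loading, and had 1561 in silncMDSC and 1502 in control (0.05). Cdt1 and geminin were thus level while Cdc6 was among the 3 members past 1.2-fold.

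The MCM ring is made of Mcm2, Mcm3, Mcm4, Mcm5, Mcm6 and Mcm7, each present in 1 copy. Of these 6 genes, 5 were below control and Mcm7 was above it. Mcm2 had 668 in silncMDSC and 781 in control (-0.23). Mcm3 had 706 in silncMDSC and 816 in control (-0.21). Mcm5 had 2815 in silncMDSC and 3127 in control (-0.15). Mcm4 (-0.14) and Mcm6 (-0.10) were closer, and the summed intensity of the 6 was 9313 in silncMDSC and 9883 in control. Mcm7 had 2578 in silncMDSC and 2387 in control (0.11). Other probe sets kept this order of sides for most of the ring. All 5 probe sets of Mcm3 lay below 0 (-0.28 to -0.11), Mcm2 had -0.40 on its other one, and all 4 of Mcm7 lay above 0 (0.01 to 0.11). The dimmest probe set of Mcm6 above the floor was at 0.05.

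Helicase activation had the narrowest range of the 5 roles on the brightest probe sets. Its 6 genes ran from -0.14 to 0.04, with a median of -0.10 and none past 1.2-fold. GINS, the 4-subunit complex that joins the MCM ring to the polymerase, had Gins1 at -0.14, Gins2 at -0.13, Gins3 at -0.08 and Gins4 at 0.04. On their other probe sets, Gins2 was at -0.22 and Gins3 on the other side at 0.07. Cdc45, the third part of the active helicase, had 227 in silncMDSC and 247 in control (-0.12), but its other probe set gave 0.24, so its side is unsettled. Mcm10, which helps to start the helicase, had 292 in silncMDSC and 306 in control (-0.07).

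Among the polymerases, the subunits of polymerase δ, which copies the lagging strand, were the farthest apart from each other. Pold1, its catalytic subunit, had 433 in silncMDSC and 377 in control (0.20), the highest difference of the 40, and 0.16 on its other probe set. Pold2, the subunit that binds Pold1 to the rest, had 232 in silncMDSC and 285 in control, 1.23-fold lower (-0.30) on its single probe set. The other genes of this role lay between. Primase, which makes the RNA primer, had Prim1 at -0.19 (462 in silncMDSC and 529 in control) and Prim2 at 0.01. Polymerase α, which extends that primer, had Pola1 at -0.09 and Pola2 at -0.06. Polymerase ε of the leading strand had Pole at -0.01 and Pole2 at -0.09. The median of the 8 genes was -0.07, with 6 below 0.

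Fork proteins split in the same way, with 8 of 11 below 0 and a median of -0.12. Fen1, which cuts the flaps of Okazaki fragments, had 1059.8 in silncMDSC and 1248 in control (-0.24), and -0.36 on its other probe set. Pcna, the sliding clamp and the brightest of the 40 on both arrays, had 3860.2 in silncMDSC and 4237 in control (-0.13). Lig1, the ligase that seals the fragments Fen1 has trimmed, went the other way, with 685 in silncMDSC and 612 in control (0.16) on 1 probe set.

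The single-strand binding protein RPA was uneven. Rpa1, its large subunit, had 2264 in silncMDSC and 2032 in control (0.16, and 0.07 on its other probe set), whereas Rpa2 had 421 in silncMDSC and 488 in control (-0.21, and -0.24) and Rpa3 was level (-0.03). The clamp loader RFC was more even. Rfc4 (-0.16), Rfc5 (-0.14), Rfc3 (-0.12) and Rfc1 (-0.05) were below control and Rfc2 (0.05) above it.

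Regulators that open S phase or follow the fork were all below control on the brightest probe sets, from -0.23 to -0.02. Ccne2, a cyclin E that drives Cdk2 into S phase, had 310.4 in silncMDSC and 364 in control (-0.23). Its relative Ccne1 was level on the brightest probe set (-0.02, and above 0 with quantile normalization or the loess trend) but gave -0.28 on the other. Uhrf1, which brings the maintenance methyltransferase to newly copied DNA, had 881 in silncMDSC and 930 in control (-0.08).

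**Figure D2:**
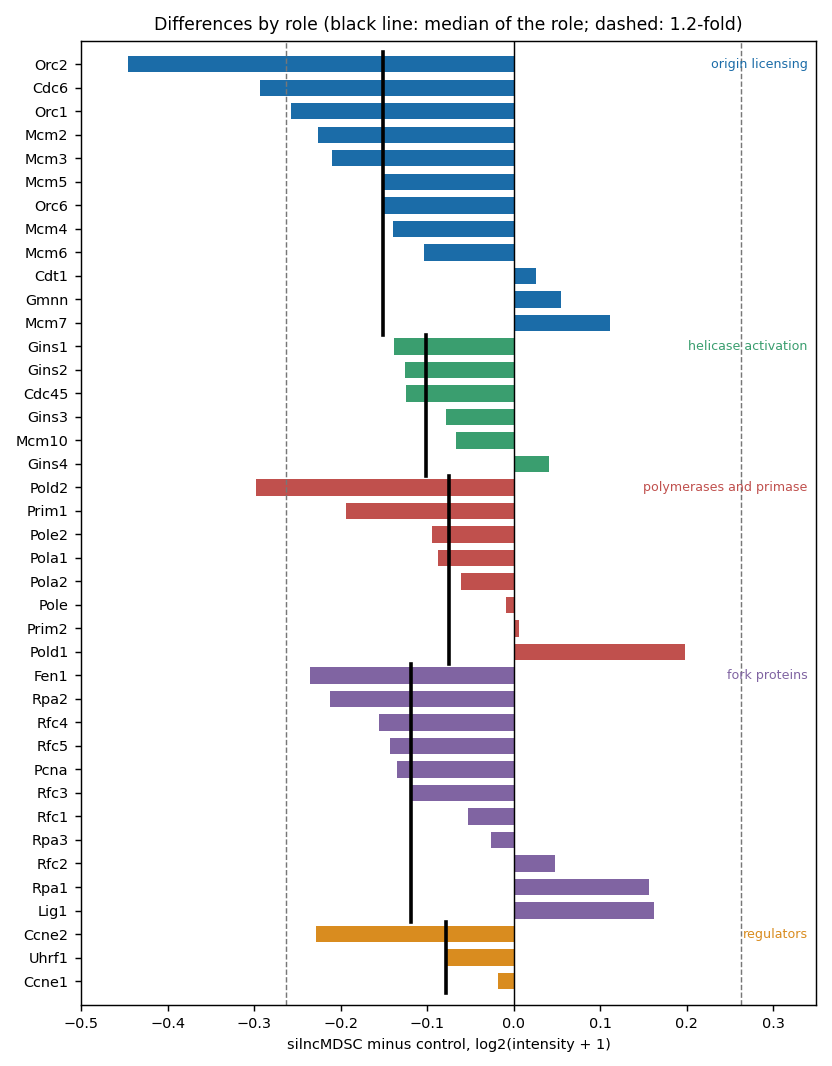
Difference (x axis, silncMDSC minus control, log2(intensity + 1)) of each replication gene, coloured by role, with the median of each role as a black line and 1.2-fold as dashed lines. All 5 medians lie below 0, from -0.15 for origin licensing to -0.07 for the polymerases, and in the values plotted Orc2, Cdc6 and Pold2 pass the lower dashed line.

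A gene's other probe sets read the same RNA again, so they test the reading and not the condition. Of the 24 members with at least 2 probe sets above the floor, 20 (83.3%) had the second brightest one on the side of the first, against 71.8% of the 4845 genes above the floor with as many. On that second probe set 18 of the 24 (75%) lay below 0, against 53% of the same genes. All probe sets above the floor lay below 0 for 15 of the 24 and above 0 for 4 (Mcm7, Pold1, Rfc2 and Rpa1). Cdc45, Cdt1, Gins3, Mcm6 and Prim2 were mixed. Of the 4845 genes, 1680 had all of theirs below 0 and 1350 all above 0. The choice of probe set changed the count past 1.2-fold. With the less specific probe sets (those named _s_at or _x_at, which may bind other transcripts) left out, 8 members (20%) were at least 1.2-fold lower, namely Orc2, Cdc6, Pold2, Mcm2, Mcm3, Mcm5, Fen1 and Ccne1, while all genes stood at 10.7%. When the probe sets of a gene were averaged, 6 members (15%) were, against 9.19% of all genes. The scaling changed which genes passed as well: with quantile normalization Orc1 was at least 1.2-fold lower and Cdc6 was not, and with the loess trend Orc1 was lower by as much beside the other 3.

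**Figure D3:**
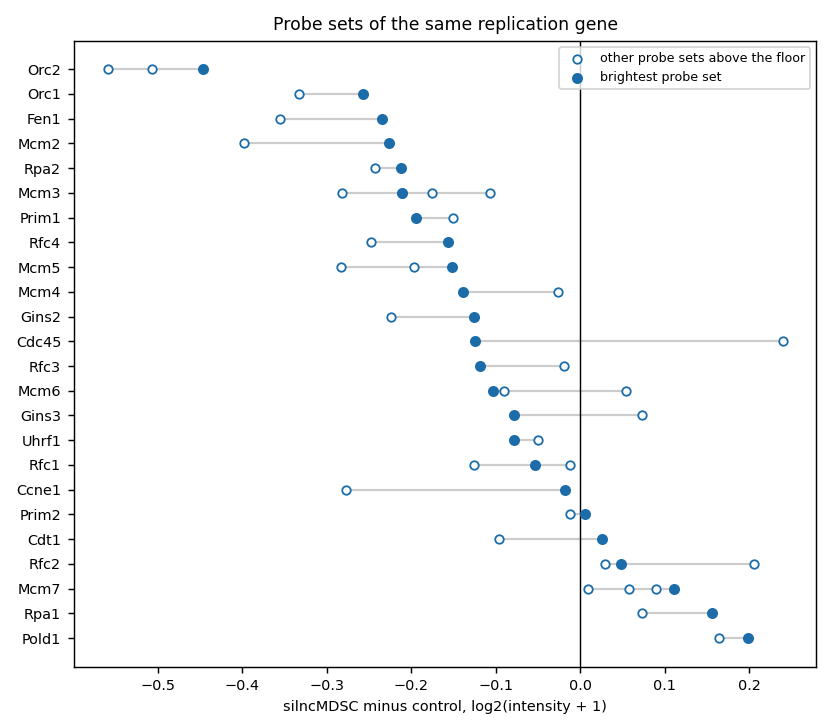
Differences (x axis, log2) of all probe sets above the floor for the 24 replication genes with at least 2, the brightest filled and the others open, ordered by the brightest. The 3 probe sets of Orc2 lie between -0.56 and -0.45, while the second one of Cdc45 is at 0.24 against -0.12 for the first.

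Other replication factors outside the 40 leaned to the same side, with a wider spread. Of 45 genes listed for initiation, checkpoint, chromatin assembly and DNA ends, 41 were above the floor. Their median was -0.08 and their standard deviation 0.19, against 0.13 for the members. Of the 41, 28 (68.3%) lay below 0, against 50.7% of all genes. At 1.2-fold, 5 (12.2%) were lower against 10.6% of all genes, and 1 was higher against 6.96%. The farthest below control were Chek1, the checkpoint kinase (-0.44), Tipin, which protects stalled forks (-0.39), and Pole4, a small subunit of polymerase ε (-0.30). Pold4, the smallest subunit of polymerase δ, was the 1 gene past 1.5-fold, with 757 in silncMDSC and 485 in control (0.64). Rnaseh2a (0.25), which removes RNA from DNA, and the helicase Recql4 (0.14) followed it.

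Medians of the mitosis, nucleotide and ribosome lists stood on both sides of that of the replication genes. Mitosis and spindle genes, which divide the copied chromosomes, had a median of 0.07 over 42 genes with 32 above 0. Below 0 lay 23.8% of them, against 50.7% of all genes. At 1.2-fold 3 were higher, near the 6.96% of all genes, and 0 were lower against 10.6%. Cenpa, the centromere histone (0.33), the spindle protein Nusap1 (0.29) and the kinesin Kif2c (0.28) were highest, and Kif20b (-0.17), Aurka (-0.13) and the proliferation marker Mki67 (-0.08) lowest. Enzymes of nucleotide synthesis had a median of -0.23 over 24 genes. Of these, 12 (50%) were at least 1.2-fold lower, against 10.6% of all genes. At least 1.5-fold lower were 4, against 1.42% of all genes. These were Pfas (-0.78), Gart (-0.68) and Ppat (-0.66) of purine synthesis and Ctps (-0.78), which makes CTP. Tk1, thymidine kinase (0.20), and Mthfd2 (0.25) of the folate cycle were highest, with Mthfd1l at 0.06. Ribosome assembly genes had a median of -0.59 over 38 genes, 19 of them at least 1.5-fold lower, against 1.42% of all genes. Nolc1 (-1.11), Nop58 (-1.02) and Gnl3 (-0.94) were in front, and Polr1c (0.18), Nat10 (0.13) and Rrp9 (-0.06) were highest. The median of the replication genes lay between that of the mitosis list and those of the nucleotide and ribosome lists, and with 1 array per group the gaps between lists were not tested.

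**Figure D4:**
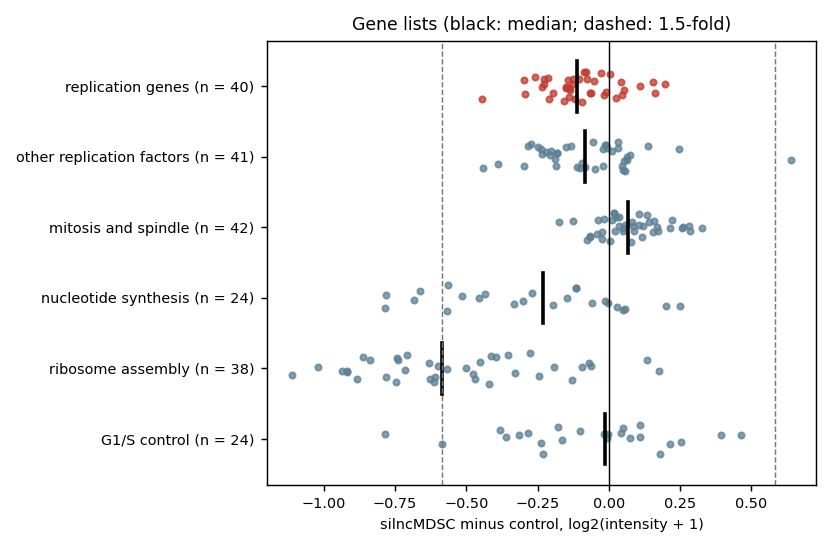
Differences (x axis, log2) of genes above the floor in 6 lists, 1 point per gene, with medians as black bars and 1.5-fold as dashed lines. The replication genes centre on -0.11, the mitosis and spindle genes on 0.07 and the ribosome assembly genes on -0.59.

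Markers of several cell types also differed between the 2 arrays, and in bulk RNA fewer cells of a type and less RNA per cell cannot be told apart. All 6 promyelocyte genes (Mpo, Elane, Prtn3, Ctsg, Ms4a3 and Gfi1), which mark dividing neutrophil precursors, were lower, with a median of -0.22 and a summed intensity of 20022 in silncMDSC and 23748 in control. The 10 macrophage genes had a median of -0.47 and a summed intensity of 11800.0 in silncMDSC and 14769 in control. Of these, 5 were at least 1.5-fold lower, against 1.42% of all genes. They included the mannose receptor Mrc1 (-0.93) and the scavenger receptor Msr1 (-0.91). Adgre1 was level, with 3068 in silncMDSC and 3070.1 in control, and C1qa was at -0.03. The 8 dendritic cell genes were all above 0 (median 0.53, summed intensity 22360 in silncMDSC and 16477 in control). At least 1.2-fold higher were 7 of them, against 6.96% of all genes. Of 6 eosinophil genes, 4 were above the floor and all 4 above 0 (median 0.46, summed intensity 4381 in silncMDSC and 3156 in control), and the receptors Il5ra and Ccr3 were under it.

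The remaining cell type lists held genes on both sides of 0. The 9 neutrophil genes above the floor had a median of -0.03 and ran from -0.19 to 0.44, with Cxcr2 highest. The 8 progenitor genes had a median of 0.06 and ran from -0.64 for Sox4 to 0.34 for Flt3. The 6 monocyte genes above the floor had a median of 0.14, from -1.01 for Vcan to 0.37 for Cx3cr1. The other 2 of that list, Ly6c1 and Ly6c2, were not read by a single-symbol probe set. Medians were 0.09 over 6 mast cell and basophil genes (-0.44 to 0.48), -0.02 over 4 B cell genes (-0.17 to 0.36) and 0.16 over 4 T and NK cell genes (-0.04 to 0.91). Of 10 erythroid genes 5 were above the floor, with a median of 0.04 and a range of -0.30 to 0.29, and Klf1, Hba-a1 and Alas2 were under it on both arrays. The part of these cell types in the replication genes was not tested.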

How the data were processed

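Gene expression was measured in 2 samples, 1 culture per siRNA, from 6 µg of total RNA each, on the Affymetrix Mouse Genome 430 2.0 array named in the methods. The authors deposited 1 linear intensity per probe set and array, with a lowest value of 1. The submitters' processing notes name RMA, and its version, the return to the linear scale and the lower limit are not given in the sources used here. Such a lower limit and between-array normalization can narrow differences. Of 45037 probe sets, apart from 64 control probe sets, 34945 had 1 symbol in the platform annotation, 932 several and 9160 none. All 40 members had the same symbol under their Entrez identifier in RefSeq (GRCm38.p6).

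Differences were log2(intensity + 1) of silncMDSC minus control. A gene was kept when at least 1 of its values was no lower than 78.4, the median over all probe sets. The methods' limma test was not run because 1 array per group leaves no residual degrees of freedom, so genes were counted past 1.2-fold and 1.5-fold beside the share of all genes. The number of arrays limits the precision. Every member was accounted for, with values on both arrays for those at least 1.2-fold apart, those farthest from 0 and others of their complexes; of the other lists the 3 genes farthest each way and any past 1.5-fold were named. Of the ribosome assembly genes past 1.5-fold, the farthest 3 were named, and cell type lists were given as medians and ranges, with genes named after their values were seen. The members, lists and roles were chosen with earlier results of these data known. Promoters came from the RefSeq table, where 31 of the 40 matched. Alternatives were centring, a loess trend (span 0.3), quantile normalization, a pseudocount of 16, other floors and other choices of probe set. The calculation was tested on simulated data. Python 3.11.15, pandas 2.3.3, numpy 2.4.6 and statsmodels 0.14.6 were used.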

Additional observations from a re-analysis of the deposited data

How the results depend on the processing

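The lean of the replication genes kept its side under all 9 other settings. Their median ran from -0.12 to -0.08 and their count below 0 from 28 to 31, with 37 instead of 40 genes at a floor at the 75th percentile. The share of all genes below 0 ran from 46.8% with quantile normalization to 55% at that floor. In both of these settings 28 members lay below 0. The 5 role medians also kept their side, as did the medians of the other replication, nucleotide, mitosis and ribosome lists. With the mean of all probe sets, however, the median of helicase activation was near 0 (-0.01) and that of the polymerases was -0.04. Medians of the G1/S and cell type lists were run after seeing the data: G1/S control changed side with quantile normalization and the loess trend, progenitor at the 75th percentile floor, erythroid there and with no floor, and B cell with no floor, and the rest kept theirs. Of 40 genes, 26 stayed below 0 and 8 above 0 throughout; Cdt1, Cdc45 and Pola1 changed side with the mean of all probe sets, Rpa3 and Ccne1 with the loess trend and with quantile normalization, and Pole with quantile normalization. The count at least 1.2-fold lower was 2 of 37 at the 75th percentile floor, which left out Orc2 (all genes 12.7%), 6 with the mean of all probe sets (15%; all genes 9.19%) and 8 without _x_at and _s_at probe sets (20%; all genes 10.7%), a setting that also took the median of the regulators to -0.23, since it reads Ccne1 from its other probe set. At the 1.5-fold threshold the counts were 0 in both directions in every setting. No paired analysis was possible because each group holds 1 array. The dimmest members, Orc1 and Orc2, are limited most by signal over background.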

Other observations

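Genes that decide entry into S phase were read as a further list, and they split within it. Of 25, 24 were above the floor (Cdkn2a was under it), with a median of -0.01. At 1.2-fold 6 (25%) were lower, against 10.6% of all genes, and 2 were higher, near the 6.96% of all genes. The transcription factor Myc had 430 in silncMDSC and 741 in control (-0.78), and E2f3 (-0.58) and the D-type cyclin Ccnd2 (-0.38) were next. At the other end were 3 inhibitors of cyclin-dependent kinases, Cdkn2c, with 596 in silncMDSC and 432 in control (0.46), Cdkn1b (0.39) and Cdkn2d (0.26). Neither kind of gene kept to 1 side. The inhibitor Cdkn1a was level (0.05), and the E2F genes ran from -0.58 for E2f3 to 0.11 for E2f1 and 0.18 for E2f2. None of these differences was tested.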
